A study of Mus musculus with 4 samples.

Results

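Transcripts of 44 genes for lysosomal hydrolases, their helper proteins and lysosomal membrane proteins were compared between primary mouse keratinocytes that lack the glucose transporter Glut1 (gene Slc2a1) and wild-type (WT) keratinocytes. The genes were taken from a list of names that was chosen with earlier results of these data known. Each was read from the row with the highest mean signal among rows that carry exactly 1 gene symbol. Such a row was found for 42 of the 44 genes, out of 30140 genes measured in this way. The rows that hold Ctsd and Glb1 also carry another gene's symbol and were not used.

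The Glut1-deficient group and the WT group each came from 4 mice of 1 week of age on a C57BL/6J background, and the deficiency was restricted to keratinocytes. The sources used here do not name the driver of the deletion or the deleted stretch. Cells of both genotypes grew for 3 days in a keratinocyte medium with 0.05 mM CaCl2, hydrocortisone, EGF, bovine pituitary extract, insulin and antibiotics, were replated on collagen at 2000000 cells and were lysed after a night. For each array, 2 plates of a genotype were combined at random, which gave 2 Glut1-deficient and 2 WT arrays of total RNA on the Affymetrix MTA-1_0 platform. The p-values therefore measure the spread between 2 pools per genotype, which may in part be technical.

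Lysosomes are acidic vesicles in which hydrolases break down proteins, glycans, sulfated sugars and lipids that arrive by endocytosis and autophagy. Most of the soluble enzymes carry mannose 6-phosphate, which receptors in the Golgi recognise, while membrane proteins form the glycan-coated wall and hold channels and exporters. In keratinocytes, cathepsins and lipid hydrolases also take part in the remodelling of the cell as it differentiates, and the MiT family of transcription factors is known to drive many lysosomal genes through an E-box.

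Slc2a1 signal was 12.09 and 12.01 on the Glut1-deficient arrays, against 13.26 and 13.40 on the WT arrays (log2 values, as all signals below). Slc2a1 thus fell by 1.28 (SE 0.10, 2 arrays against 2, adjusted p = 0.00754 in limma); leaving out Glut1-deficient replicate 1 gave an adjusted p of 0.0508. Array medians lay between 4.19 and 4.24, and a background floor, the 95th percentile of 23 background control rows of an array, lay between 4.36 and 4.87. Of 10 keratinocyte markers 9 were above the floor on both arrays of a genotype, and 8 had both Glut1-deficient arrays below both WT arrays (beside 25.9% of all genes and 32.4% of those above the floor). Krt5, a basal keratin, had 18.30 and 17.98 in the Glut1-deficient cells, against 18.61 and 18.69 in WT cells. Krt14, its partner keratin, had 17.16 and 16.97 against 17.40 and 17.60. Neither was called (adjusted p = 0.0994 for Krt5 and 0.122 for Krt14), though both passed as lower after quantile normalization (0.0354 and 0.0403). Dsg3, a desmosomal cadherin, rose by 0.92 (adjusted p = 0.0157, lost without Glut1-deficient replicate 1 or either WT array at 0.078, 0.0811 and 0.0531), and Col17a1, a hemidesmosomal collagen, fell by 0.86 (0.0181, lost in all 4 fits with 1 array left out, 0.0567 to 0.0883). Krt15, Krt1 and Krt10 lay between 4.34 and 5.48 on all arrays. Col17a1 and these 3 keratins were named after their values were seen.

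Lysosomal transcripts were mostly higher in the Glut1-deficient cells. The list was chosen with earlier results of these data known, so the shares below describe it and do not test it. Of the 42 measured genes 15 rose and 2 fell at a limma adjusted p under 0.05 over all rows with 1 symbol, and 25 did not pass. The 15 that rose make 35.7% of the genes, beside 4.12% of all genes called higher. The 2 that fell make 4.76%, beside 3.13% of all genes called lower. Above the floor on both arrays of a genotype were 39 of the 42 genes, and among all genes above it 8.06% were called higher and 6.13% lower. The median difference over the 42 genes, Glut1-deficient minus WT, was 0.53 on the log2 scale, against -0.01 over all genes. A rise of at least 2-fold was called for 9 of the 42, beside 1.51% of all genes and 3.01% of those above the floor. Both Glut1-deficient arrays were above both WT arrays for 27 genes (64.3%, beside 23.9% of all genes and 32.7% of those above the floor) and below both for 7 genes (16.7%, beside 25.9% and 32.4%), and the genotypes overlapped for 8. By role, 5 of 7 membrane proteins rose, as did 5 of 8 lipid-degrading or lipid-carrying proteins, 4 of 10 glycosidases and 1 of 10 cathepsins and related peptidases. None of the 5 sulfatases or the 2 acid phosphatases rose, and 1 of each fell. Differences between roles were not tested. Fewer cells of a type and less RNA per cell cannot be told apart in these bulk samples.

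The number of calls changed with the arrays kept and with the rows tested. Leaving out 1 array sets 1 array against 2, so a call can be lost through lower precision alone. Of the 17 calls 5 were kept without Glut1-deficient replicate 1, 13 without Glut1-deficient replicate 2, 3 without WT replicate 1 and 5 without WT replicate 2. When every row of the table was tested, unnamed and control rows included, none of the 17 passed (lowest adjusted p 0.0648). An unadjusted p under 0.05 was then found for 28 of the 42 genes, beside 29 with the rows of 1 symbol. With the rows of 1 symbol, 6647 of all 30140 genes and 5761 of the 15032 above the floor also had one. The direction of all 17 was the same in these fits.

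**Figure D1:**
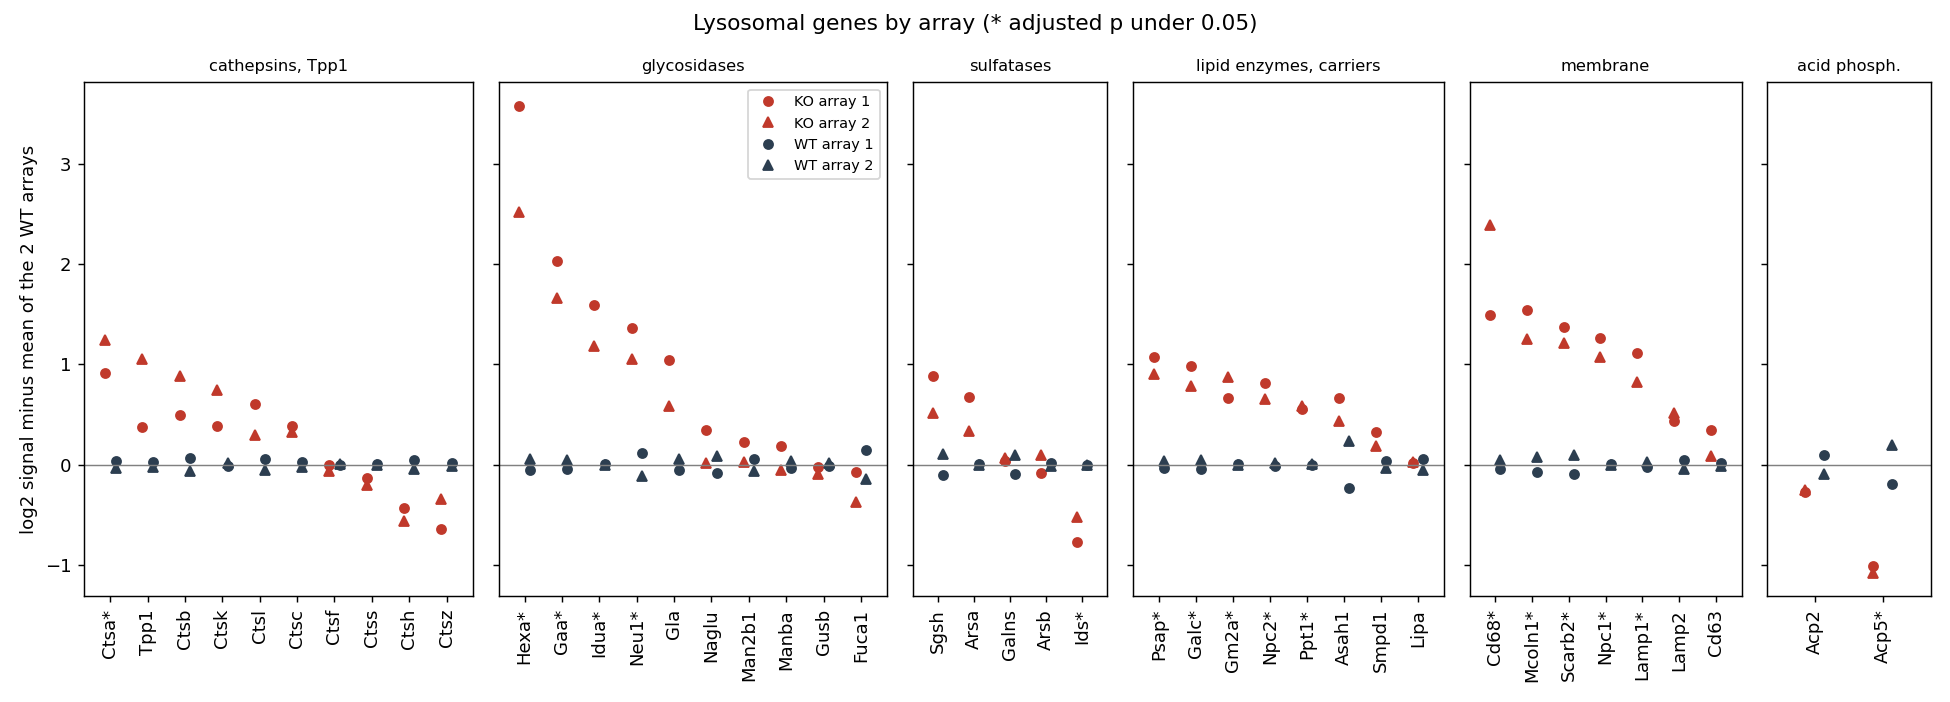
Each column is a lysosomal gene, grouped by role, and the vertical axis gives log2 signal minus the mean of the 2 WT arrays. Red symbols are Glut1-deficient (KO) arrays and dark symbols WT arrays, with circles for replicate 1, triangles for replicate 2 and an asterisk for an adjusted p under 0.05. All 7 membrane genes have both KO arrays above both WT arrays (beside 32.7% of all genes above the floor), while the cathepsins lie on both sides of 0.

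**Figure D2:**
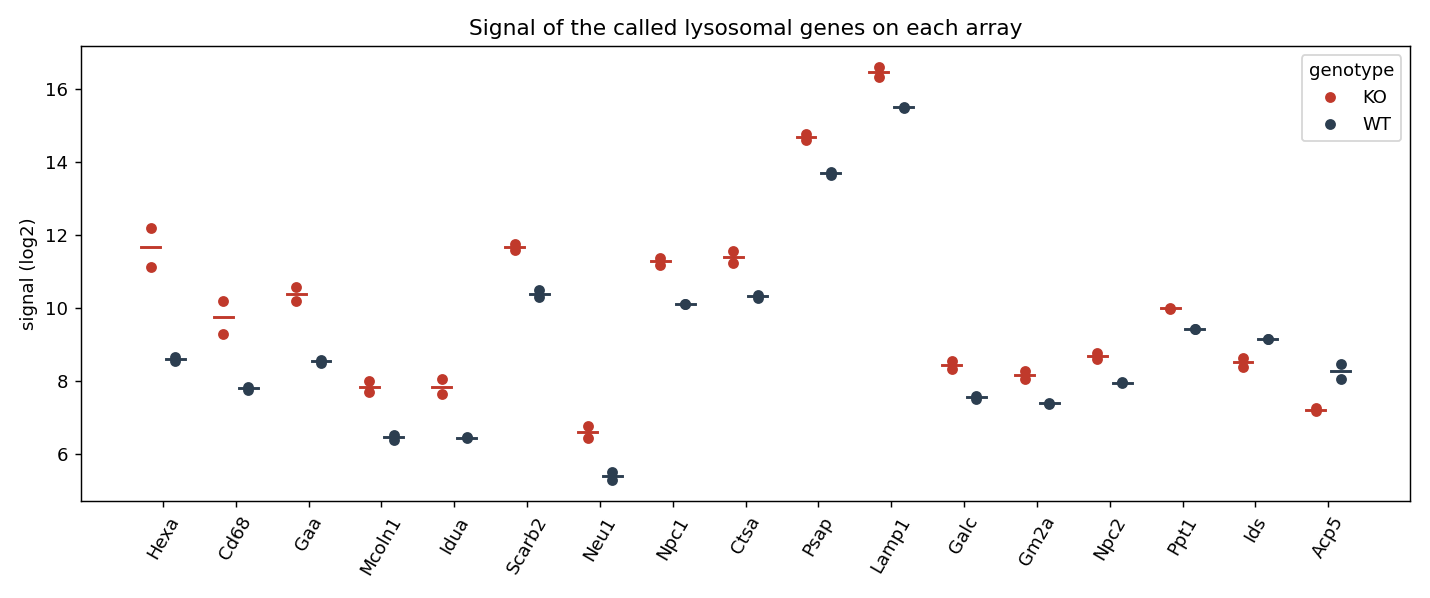
Log2 signal of the 17 called lysosomal genes on every array, with Glut1-deficient (KO) arrays in red to the left of WT arrays in dark for each gene, and a line at the mean of each genotype. Hexa and Cd68 have the widest gap between the KO arrays, and Ids and Acp5 are the only genes of the 17 that are lower in KO cells.

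The 4 promoters printed here belong to genes that rose and whose promoter holds CACGTG, the core of the E-box that MiT factors are known to bind. They were picked because the genes rose and the promoters hold the core, so their holding it is not a result. Sequences are from RefSeq, build GRCm38.p6, the 250 bases before the start site, read 5′ to 3′, with the core in capitals:
Lamp1 (chr8:13158911-13159160, + strand): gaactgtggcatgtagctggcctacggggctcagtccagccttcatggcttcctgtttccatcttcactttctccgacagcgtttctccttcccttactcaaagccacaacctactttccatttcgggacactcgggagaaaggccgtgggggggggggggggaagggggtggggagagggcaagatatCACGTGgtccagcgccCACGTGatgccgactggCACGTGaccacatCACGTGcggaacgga
Mcoln1 (chr8:3500269-3500518, + strand): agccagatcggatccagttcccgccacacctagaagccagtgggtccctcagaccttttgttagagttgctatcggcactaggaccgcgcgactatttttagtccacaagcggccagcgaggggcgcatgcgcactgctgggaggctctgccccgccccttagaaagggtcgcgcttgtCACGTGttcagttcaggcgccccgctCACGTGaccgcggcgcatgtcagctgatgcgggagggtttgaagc
Ctsa (chr2:164833523-164833772, + strand): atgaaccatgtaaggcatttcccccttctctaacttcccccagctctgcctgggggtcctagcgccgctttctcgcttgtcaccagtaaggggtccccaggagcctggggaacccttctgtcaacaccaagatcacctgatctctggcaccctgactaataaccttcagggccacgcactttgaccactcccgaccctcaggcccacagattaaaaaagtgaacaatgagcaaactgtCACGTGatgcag
Gaa (chr11:119267713-119267962, + strand): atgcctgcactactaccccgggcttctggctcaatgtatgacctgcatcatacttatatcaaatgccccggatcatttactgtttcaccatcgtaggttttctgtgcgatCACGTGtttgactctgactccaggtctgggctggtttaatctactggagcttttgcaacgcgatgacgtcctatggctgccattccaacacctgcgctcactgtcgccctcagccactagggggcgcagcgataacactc
Lamp1 holds 4 copies of the core, Mcoln1 2, and Ctsa and Gaa 1 each in these windows. In Mcoln1 the copy that begins 45 bases before the start is flanked by T and A (TCACGTGA), and in Ctsa so is the copy that begins 12 bases before the start. A further flanked copy of Ctsa begins at base 6 after the start, outside the printed stretch, and a second start site of Ctsa has no copy in its window.

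In the RefSeq table, 39 of the 44 genes had a promoter window, from 250 bases before to 50 after the start. The core was found in 12 of the 39 (30.8%), against 2187 of 27025 genes with a promoter (8.09%). All 3 motifs searched are palindromes, so a match holds for both strands, and each longer motif contains the shorter one. The 8-letter form TCACGTGA was in 4 of the 39 genes (10.3%: Ctsa, Ctsd, Gla and Mcoln1), against 304 genes (1.12%). The 10-letter form GTCACGTGAC was in 0 of the 39, against 100 genes (0.37%). Among measured genes, the core was in 4 of 14 that rose (28.6%) and in 6 of 23 that did not (26.1%). A match of letters is a description of the sequence, not a binding site.

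**Figure D3:**
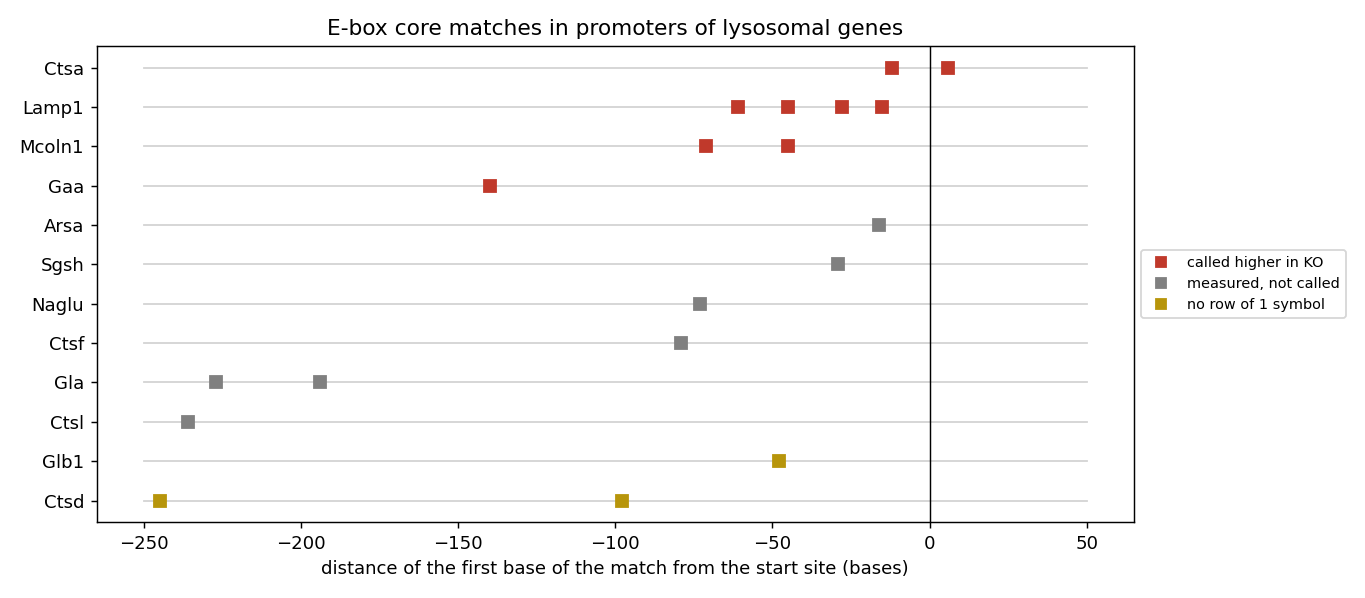
Distance in bases from the start site to the first base of each E-box core match, for the 12 lysosomal genes with a match in the window drawn as a grey line. Red marks genes called higher in Glut1-deficient (KO) cells, grey measured genes that were not called and yellow genes with no row of 1 symbol. The 4 matches of Lamp1 begin between -61 and -15, and the 2 of Gla at -227 and -194.

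Membrane proteins of the lysosome rose in 5 of 7 genes (71.4%, beside 4.12% of all genes and 8.06% of those above the floor). Cd68, a heavily glycosylated protein of late endosomes that is abundant in macrophages, had 9.30 and 10.20 on the Glut1-deficient arrays, against 7.76 and 7.85 on the WT arrays. Both Glut1-deficient arrays were above both WT arrays, and they differed from each other by 0.90. The rise was 1.95 on the log2 scale (3.85-fold, SE 0.30, limma adjusted p = 0.0267). Mcoln1, the calcium-conducting channel also called TRPML1, had 8.0 and 7.71 in Glut1-deficient cells, against 6.38 and 6.53 in WT cells, a rise of 1.40 (SE 0.14, adjusted p = 0.0111). Scarb2, the membrane protein LIMP-2 that carries glucocerebrosidase to the lysosome, had 11.77 and 11.61 against 10.30 and 10.49 in WT cells. It rose by 1.30 (SE 0.12, adjusted p = 0.00942), or 2.46-fold. Npc1, which passes cholesterol out through the membrane, had 11.38 and 11.20 on the Glut1-deficient arrays, against 10.12 on each WT array. The rise of Npc1 was 1.17 (SE 0.11, adjusted p = 0.00956). Lamp1, a main component of the glycan coat, had 16.62 and 16.33 in Glut1-deficient cells, against 15.48 and 15.53 in WT cells, and rose by 0.97 (SE 0.13, adjusted p = 0.0204). Its relative Lamp2 had 15.43 and 15.51 against 15.04 and 14.95, a difference of 0.47 with an adjusted p of 0.0563. Cd63, a tetraspanin of late endosomes, differed by 0.22 (adjusted p = 0.404), with its 4 values between 14.38 and 14.73. All 7 genes had both Glut1-deficient arrays above both WT arrays (beside 32.7% of all genes above the floor).

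Each of these calls was lost in some fit with 1 array left out, where precision is lower. The difference then ranged from 0.83 to 1.12 for Lamp1 and from 1.25 to 1.54 for Mcoln1. It ranged from 1.07 to 1.26 for Npc1 and from 1.21 to 1.39 for Scarb2. Lamp1 was lost without Glut1-deficient replicate 1 or either WT array (adjusted p = 0.071, 0.0909 and 0.0746), Mcoln1 and Npc1 without Glut1-deficient replicate 1 (0.0527 and 0.0524) or WT replicate 1 (0.0501 and 0.0504), Scarb2 without Glut1-deficient replicate 1 (0.0572), and Cd68 without WT replicate 1 or 2 (0.0913 and 0.0756). The log2 difference of Cd68 was 2.40 without Glut1-deficient replicate 1 and 1.49 without replicate 2. Macrophage markers were near background: 10 of 11 lay at or below the floor on every array, including Csf1r, the receptor that defines the lineage, with 3.79 and 3.70 in Glut1-deficient cells, against 3.79 and 3.78 in WT cells. The exception was Cd14, a co-receptor that other cells also make, with 6.32 and 6.39 against 7.60 and 7.85 in WT cells, a difference of -1.38 (adjusted p = 0.0088, lost without Glut1-deficient replicate 1 at 0.0606). The summed signal of the macrophage list, as log2, was 7.62 and 7.63 in Glut1-deficient cells and 8.31 and 8.47 in WT cells. This sum is made of Cd14 and the 10 genes at or below the floor. The part of macrophages in the Cd68 values was not tested.

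Proteins that degrade or carry lipids rose in 5 of 8 genes (62.5%, beside 4.12% of all genes and 8.06% of those above the floor). All 5 rises were less than 2-fold. Psap, the precursor of the saposins that present sphingolipids to their hydrolases, had 14.76 and 14.60 on the Glut1-deficient arrays, against 13.66 and 13.73 on the WT arrays, and rose by 0.99 (SE 0.11, limma adjusted p = 0.014). Galc, the galactosylceramidase that works with a saposin, had 8.55 and 8.34 against 7.52 and 7.60 in WT cells, a rise of 0.89 (SE 0.11, adjusted p = 0.019). Gm2a, the activator that lifts ganglioside GM2 for hexosaminidase A, had 8.05 and 8.27 in Glut1-deficient cells, against 7.40 and 7.39 in WT cells, a rise of 0.77 (adjusted p = 0.0247). In each of these the arrays of a genotype lay closer to each other than to the other genotype. Npc2, the soluble carrier that hands cholesterol to Npc1, had 8.77 and 8.62 against 7.94 and 7.98 in WT cells and rose by 0.74 (adjusted p = 0.0226). Ppt1, which removes palmitate from proteins, had 9.98 and 10.01 against 9.42 and 9.43 in WT cells and rose by 0.57 (SE 0.09, adjusted p = 0.0297). Among the 3 that did not pass, Asah1, the acid ceramidase, differed by 0.55 (adjusted p = 0.17), and its WT values of 11.73 and 12.20 were farther apart than its Glut1-deficient values of 12.63 and 12.40. Smpd1, the acid sphingomyelinase, differed by 0.26 (adjusted p = 0.232), and Lipa, the acid lipase for cholesteryl esters, by 0.02 (adjusted p = 0.95). The genotypes overlapped for Lipa only, and the other 7 had both Glut1-deficient arrays above both WT arrays (beside 32.7% of all genes above the floor).

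Gm2a and Ppt1 were lost in all 4 fits with 1 array left out, Gm2a with adjusted p-values of 0.064 to 0.112 and Ppt1 with 0.0815 to 0.157. Psap, Galc and Npc2 passed only without Glut1-deficient replicate 2 (0.0378, 0.0427 and 0.0494) and were lost in the other 3 fits (adjusted p from 0.0554 to 0.115).

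Glycosidases, which cut sugars from glycans, rose in 4 of 10 genes (40.0%) and fell in none. Of all genes 4.12% were called higher, and of those above the floor 8.06%. Hexa, Gaa and Idua had the largest differences among the hydrolases of the 42 genes. Hexa, the alpha subunit of hexosaminidase A, had 12.21 and 11.14 on the Glut1-deficient arrays, against 8.56 and 8.68 on the WT arrays. The Glut1-deficient arrays differed from each other by 1.06 and were both far above WT. The rise of Hexa was 3.06 (8.31-fold, SE 0.34, limma adjusted p = 0.0151), the largest of the 42 genes. Gaa, the acid glucosidase that breaks down glycogen, had 10.58 and 10.21 against 8.50 and 8.58 in WT cells, a rise of 1.85 (3.61-fold, SE 0.15, adjusted p = 0.00752). Idua, which removes iduronic acid from heparan and dermatan sulfate, had 8.05 and 7.64 against 6.46 and 6.45 in WT cells, a rise of 1.39 (SE 0.16, adjusted p = 0.0151). Neu1, the sialidase, had 6.77 and 6.45 in Glut1-deficient cells, against 5.52 and 5.29 in WT cells, a rise of 1.21 (SE 0.15, adjusted p = 0.0181). Gla, the alpha-galactosidase, had 8.50 and 8.04 against 7.40 and 7.51 in WT cells; the difference of 0.82 had an adjusted p of 0.0575. The other 5, the glucuronidase gene Gusb, Naglu, the mannosidase genes Manba and Man2b1, and the fucosidase gene Fuca1, had differences between -0.23 and 0.18 and adjusted p-values of at least 0.515. For Naglu, Manba, Man2b1 and Fuca1 the genotypes overlapped.

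Gaa was the only gene of the 42 that was called in all 4 fits with 1 array left out (adjusted p from 0.0223 to 0.0331). Hexa was lost without WT replicate 1 (adjusted p = 0.0516), Idua without WT replicate 1 or 2 (0.059 and 0.0539), and Neu1 without Glut1-deficient replicate 1 or either WT array (0.0773, 0.0516 and 0.0674). All 10 glycosidases had a higher signal on Glut1-deficient replicate 1 than on replicate 2, as had 28 of the 42 genes (66.7%), 60.4% of all genes and 54.1% of those above the floor. The 7 melanocyte markers showed the same order of the Glut1-deficient arrays. Tyrp1, a pigment enzyme, had 12.11 and 10.80 on the Glut1-deficient arrays, against 10.25 and 9.67 on the WT arrays (difference 1.49, adjusted p = 0.136). Dct, another enzyme of that pathway, had 9.22 and 8.04 against 7.06 and 6.53 in WT cells (difference 1.84, adjusted p = 0.067). Both passed without Glut1-deficient replicate 2 (0.0477 for Tyrp1 and 0.0378 for Dct), and Dct also when only rows above the floor were tested (0.0395). Pmel, the fibril protein of melanosomes, rose by 1.04 (adjusted p = 0.0341) and passed in 1 of the 4 fits, without Glut1-deficient replicate 2 (0.0415, otherwise 0.0903 to 0.122). The summed signal of the melanocyte list, as log2, was 12.37 and 11.12 in Glut1-deficient cells and 10.54 and 10.03 in WT cells, with 1 of the 7 markers, Slc45a2, named after its values were seen, at or below the floor on every array. The part of melanocytes in the lysosomal differences was not tested.

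**Figure D4:**
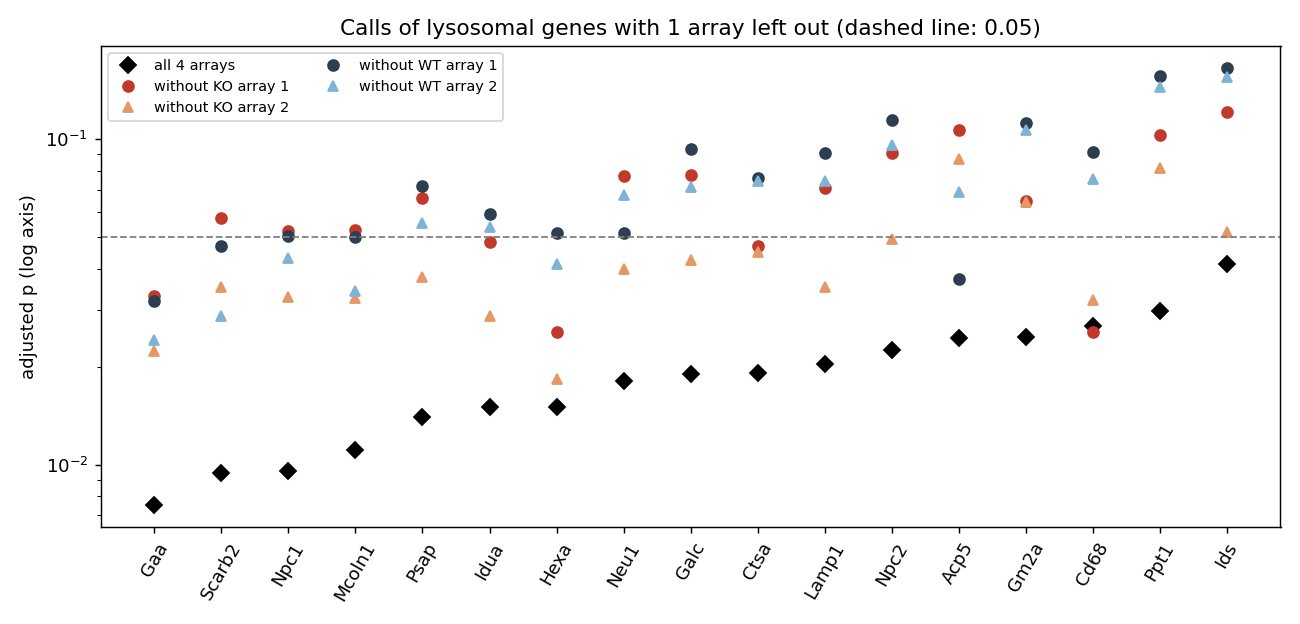
Adjusted p on a log axis for the 17 called lysosomal genes, with all 4 arrays (black) and with 1 array left out (red and orange without a Glut1-deficient array, dark and light blue without a WT array). Gaa lies under the dashed line at 0.05 in every fit, whereas Gm2a, Ppt1 and Ids lie above it in all 4 fits with 1 array left out.

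Cathepsins and related peptidases went in both directions. Of the 10 genes 1 passed, as higher (10.0%, beside 4.12% of all genes and 8.06% of those above the floor). Ctsa, a serine carboxypeptidase that also shields Neu1 from breakdown, had 11.24 and 11.57 on the Glut1-deficient arrays, against 10.36 and 10.29 on the WT arrays. Its rise of 1.08 (SE 0.14, limma adjusted p = 0.0191) was lost without WT replicate 1 or 2 (0.0759 and 0.0746). Widely expressed cysteine proteases were not called: Ctsb had 16.00 and 16.39 against 15.57 and 15.45 in WT cells (difference 0.69, adjusted p = 0.0668), and Ctsl had 16.72 and 16.41 against 16.18 and 16.06 (difference 0.45, adjusted p = 0.138). Tpp1, a tripeptidyl peptidase, differed by 0.71 (adjusted p = 0.152), with Glut1-deficient values of 14.71 and 15.39 and WT values of 14.36 and 14.31. Ctsc, which activates granule proteases in blood cells, differed by 0.35 (adjusted p = 0.0978). On the other side, the aminopeptidase gene Ctsh had 11.80 and 11.67 in Glut1-deficient cells, against 12.28 and 12.19 in WT cells (difference -0.50, adjusted p = 0.0564), and the carboxypeptidase gene Ctsz likewise differed by -0.50 (adjusted p = 0.0976). Both Glut1-deficient arrays were above both WT arrays for Ctsb, Ctsl, Tpp1 and Ctsc, and below both for Ctsh and Ctsz. Over all genes above the floor these shares were 32.7% and 32.4%. When only rows above the floor were tested, Ctsb and Ctsh passed (adjusted p = 0.0406 and 0.0361).

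The other 3 cathepsins lay close to the floor. Ctss, the cathepsin of antigen-presenting cells, had 3.86 and 3.79 in Glut1-deficient cells, against 4.00 and 3.99 in WT cells, at or below the floor on every array. Ctsf lay between 4.36 and 4.43, above the floor on 1 WT array. That was WT replicate 1, whose floor was the lowest (4.36, beside 4.63 to 4.87 on the other arrays). Ctsk, the collagen-degrading enzyme of osteoclasts and fibroblasts, had 4.39 and 4.76 against 3.99 and 4.03 in WT cells, above the floor on 1 Glut1-deficient array (adjusted p = 0.0907). All 4 osteoclast markers and 3 of 5 Langerhans cell markers lay at or below the floor on every array. Of the other 2, Epcam, an adhesion protein that epithelial cells also make, had 15.86 and 15.79 against 16.74 and 16.58 in WT cells and fell by 0.84 (adjusted p = 0.0184, lost in all 4 fits with 1 array left out, 0.0609 to 0.0933), and H2-Ab1 differed by -0.26 (adjusted p = 0.226). All 7 fibroblast genes had both Glut1-deficient arrays above both WT arrays (beside 23.9% of all genes and 32.7% of those above the floor). Of the 7, 3 lay above the floor on both arrays of a genotype and 2 at or below it on every array. The summed signal of the list, as log2, was 7.74 and 7.78 against 7.07 and 7.18 in WT cells. Dcn, the matrix proteoglycan decorin, was at least 2.14-fold higher in Glut1-deficient cells, with 5.28 and 5.97 against WT values at or below the floor (adjusted p = 0.025, lost without WT replicate 1 or 2 at 0.0697 and 0.0834). Only Dcn of the 7 was called, while Col1a1 and Thy1 differed by 0.22 and 0.37 (limma adjusted p = 0.256 and 0.0891). The part of fibroblasts in the Ctsk values was not tested.

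Sulfatases, which remove sulfate groups from glycosaminoglycans and sulfolipids, did not rise in any of 5 genes at the threshold. Among all genes above the floor 8.06% were called higher and 6.13% lower. Ids, the iduronate sulfatase that acts just before Idua on the same chains, had 8.39 and 8.64 on the Glut1-deficient arrays, against 9.16 on each WT array. Ids fell by 0.65 (SE 0.12, limma adjusted p = 0.0413), in the opposite direction to Idua. The call on Ids did not hold in any fit with 1 array left out (0.0518 to 0.166), nor after a shift of the arrays to a common median. Sgsh, the heparan N-sulfatase, had 7.32 and 6.96 against 6.33 and 6.54 in WT cells (difference 0.70, adjusted p = 0.069), and Arsa, which acts on sulfatide, had 5.43 and 5.09 against 4.76 and 4.75 (difference 0.50, adjusted p = 0.107). Arsb and Galns, which act on dermatan and keratan sulfate, differed by 0.01 and 0.05 with overlapping genotypes. Arsb also had a second, dimmer row, with a difference of 0.18 (adjusted p = 0.478).

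The 2 acid phosphatases had both Glut1-deficient arrays below both WT arrays (beside 32.4% of all genes above the floor). Acp5, the tartrate-resistant phosphatase best known from osteoclasts and macrophages, had 7.25 and 7.19 in Glut1-deficient cells, against 8.07 and 8.47 in WT cells. Acp5 fell by 1.05 (SE 0.15, limma adjusted p = 0.0245) and passed in 1 of the 4 fits with 1 array left out, without WT replicate 1 (0.0372, otherwise 0.0689 to 0.107). Acp2, the widely expressed lysosomal phosphatase, had 8.18 and 8.20 against 8.55 and 8.35 in WT cells (difference -0.26, adjusted p = 0.254).

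Genes of the same organelle outside the 44 were read from related lists, also chosen with earlier results of these data known. Other membrane proteins rose in 11 of 27 measured genes (40.7%, beside 4.12% of all genes and 8.06% of those above the floor) and fell in none. Gpnmb, a glycoprotein of lysosomes and melanosomes, had 11.72 and 11.50 on the Glut1-deficient arrays, against 6.74 and 6.48 on the WT arrays, a rise of 5.00 (limma adjusted p = 0.00156). Mcoln3, a relative of Mcoln1, had 8.60 and 8.10 against 4.90 and 4.98 in WT cells, a rise of 3.40 (SE 0.18, adjusted p = 0.00344). Slc17a5, which exports the sialic acid that Neu1 releases, had 11.11 and 11.31 against 9.60 and 9.79 in WT cells, a rise of 1.52 (adjusted p = 0.00754). Mfsd1, a transporter, rose by 1.34 (adjusted p = 0.00935) and Cln3, a membrane protein mutated in a childhood neuronal storage disease, by 0.83 (adjusted p = 0.016). Gpnmb, Mcoln3 and Slc17a5 were called in every fit with 1 array left out, Mfsd1 was lost without Glut1-deficient replicate 1 (0.0527), and Cln3 passed only without Glut1-deficient replicate 2 (0.0498, otherwise 0.0655 to 0.0884).

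Other hydrolases and their cofactors rose in 2 and fell in 1 of 16 genes (12.5% and 6.25%, beside 4.12% and 3.13% of all genes and 8.06% and 6.13% of those above the floor, where 15 of the 16 lay). Scpep1, a serine carboxypeptidase related to Ctsa, had 14.04 and 13.98 against 11.64 and 11.70 in WT cells, a rise of 2.34 (SE 0.09, limma adjusted p = 0.00219) that was kept in all 4 fits with 1 array left out. Dpp7, a dipeptidyl peptidase, rose by 1.20 (adjusted p = 0.0107, lost without Glut1-deficient replicate 1 at 0.0533). Hyal2, a hyaluronidase, fell by 0.72 (adjusted p = 0.0247) and was lost whichever array was left out (0.057 to 0.128). Of the genes that sort enzymes to the lysosome 3 of 16 rose (18.8%, beside 4.12% of all genes and 8.06% of those above the floor): the retromer gene Vps26a by 1.06 (adjusted p = 0.0101), the Golgi adaptor gene Gga2 by 0.83 (0.0189) and Gnptg, a subunit of the enzyme that makes the mannose 6-phosphate tag, by 0.66 (0.0348). Vps26a was lost without replicate 1 of either genotype (0.0562 each), and Gga2 and Gnptg whichever array was left out (0.0513 to 0.167). None of 8 cathepsin inhibitors was called by limma, and 5 of the 8 lay at or below the floor on every array. An unadjusted p under 0.05 was found for 2 of the 8, beside 6647 of all 30140 genes and 5761 of the 15032 above the floor. Cst6, cystatin M/E, had the smallest p, with 5.38 and 5.50 against 4.82 and 5.03 in WT cells (difference 0.52, adjusted p = 0.0705). None of the 4 MiT factors was called, with 1 at an unadjusted p under 0.05 (beside 6647 of all 30140 genes). That was Mitf, with 5.54 and 5.48 in Glut1-deficient cells against 5.00 and 5.15 in WT cells (difference 0.43, adjusted p = 0.0748). Tfeb, Tfe3 and Tfec differed by -0.05, 0.07 and 0.16. Tfec lay at or below the floor on every array, and Tfeb above it only on WT replicate 1, the array with the lowest floor.

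**Figure D5:**
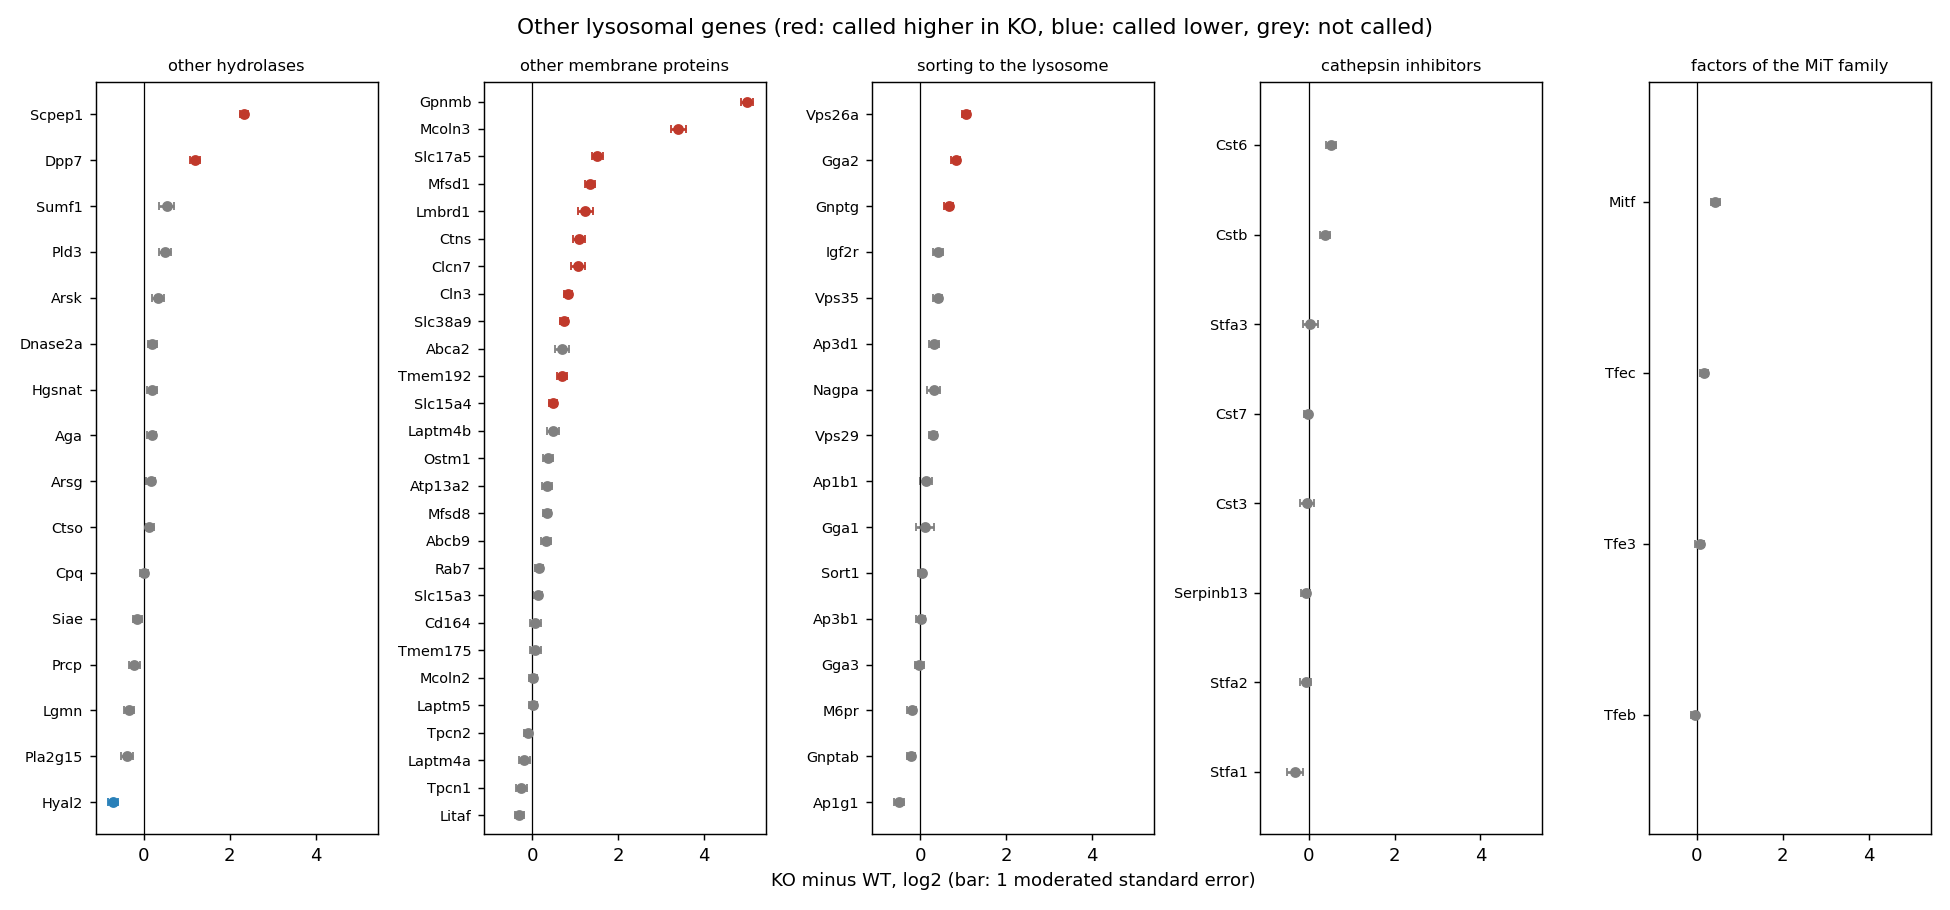
Glut1-deficient (KO) minus WT difference on the log2 scale, with 1 moderated standard error, for lysosomal genes outside the 44, in 5 lists. Red is called higher in KO cells, blue called lower and grey not called. The 11 red membrane proteins run from 0.49 for Slc15a4 to 5.00 for Gpnmb, and no inhibitor or MiT factor is coloured.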

How the data were processed

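RNA was measured on 4 arrays. Values in the deposited table are log2 signals, 1 per transcript cluster and array, which the labels call gene-level SST-RMA; the submitters' processing notes name Affymetrix Expression Console and RMA, with no version. RMA brings the arrays' distributions close to each other, so a change common to most transcripts is not visible. At the bright end they still differed. The highest value was 19.35 on Glut1-deficient replicate 2 and 19.67 to 19.72 on the other arrays.

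Of 72688 rows, 30604 carried 1 gene symbol in the platform table, 2146 several and 33206 none, and 6732 were controls. RefSeq identifiers updated 833 symbols. Rows with 1 symbol were compared with limma 3.58.1 in R 4.3.3 (lmFit and eBayes, two-sided, Benjamini-Hochberg over all 30604 rows), and called at an adjusted p under 0.05. Differences are Glut1-deficient minus WT with the moderated standard error (SE). Where both arrays of a genotype lay at or below the floor, a fold is a bound against the floor. The fit was tested on simulated data with known changes. It recovered 65.0% of 60 rows changed by 1 on the log2 scale, 92.3% of 65 changed by 2 and 94.7% of 75 changed by 3. The simulation gave 176 calls, against 2209 rows called in the data, so these shares need not hold for the data.

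The members and lists were chosen with earlier results of these data known. By rule, values on every array are given for called members, for members that differ by at least 1 and for up to 2 with the smallest p in a role with no call; those of further members were added after their values were seen. Of each related list, up to 5 called genes with the smallest p are named, otherwise the 1 with the smallest p, and of each marker list genes among the 3 with the highest mean, with others named as said. Same-numbered arrays are not tied to shared animals. Other settings changed the scaling, the set of rows, the moderation, a replicate block, the rows averaged per gene and the arrays kept. With 4 arrays, their number sets how precise any difference can be. The array's genome build is not named, so coordinates are those of RefSeq promoters only.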

Additional observations from a re-analysis of the deposited data

How the results depend on the processing

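Quantile normalization and moderation with trend and robust estimation kept every one of the 17 calls among the 42 lysosomal genes. No called gene changed direction in any of the 11 alternatives. Quantile normalization left the median difference at 0.53 but moved some bright genes. The difference of Ctsl went from 0.45 to 0.22, and that of Lamp1 from 0.97 to 0.82 (limma adjusted p = 0.0436). Among rows above the floor or at or above the median mean, 5 further genes passed (Ctsb, Ctsh, Gla, Lamp2 and Sgsh), the median difference was 0.55 and 2 genes of the related lists were lower. With arrays shifted to a common median the median difference was 0.52 and 1 lysosomal gene was lower. With every row tested, 74 rows, 0 of the 42 genes higher and 0 lower, and 3 genes of the related lists higher and 0 lower passed, and Slc2a1 had a difference of -1.28 (adjusted p = 0.0648); this test adds rows. With 1 array left out, 314 to 1214 rows changed, beside 2209 with all arrays, and 2 to 14 lysosomal genes were higher and 0 to 1 lower, with a median difference from 0.46 to 0.54. The related lists then had 4 to 12 genes higher and 0 lower, and Slc2a1 differed by -1.35 to -1.21 (-1.32 with adjusted p = 0.0508 without Glut1-deficient replicate 1). With the replicate number as a replicate block, 1849 rows, 14 lysosomal genes higher and 1 lower, and 14 related genes higher passed; Ids, Ppt1 and Gnptg were lost (adjusted p = 0.0545, 0.0642 and 0.0563), and the melanocyte markers Dct and Tyrp1 passed (0.00729 and 0.015). Deviations of same-numbered arrays correlated at -0.233, which cannot show whether arrays of the same number shared any handling. Genes that turned direction were all uncalled and near 0. Arsb was at -0.0046 after quantile normalization and -0.0026 after the median shift. With 1 array left out, the differences ranged from -0.0823 to 0.0958 for Arsb, -0.0523 to 0.1855 for Manba, -0.0435 to 0.1385 for Galns, -0.0327 to 0.0739 for Lipa, -0.0851 to 0.0143 for Csf1r, -0.0689 to 0.0222 for H2-Eb1 and -0.0162 to 0.0940 for Dcstamp. Averaging all rows of a gene gave the same median, 0.53. Motif counts in the 250 bases before the start were 12, 4 and 0 for the 3 motifs in the 39 promoters. The causes of these changes were not tested.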
